A study of Homo sapiens with 12 samples.

Results

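The nuclear subunits of respiratory complexes II to V and cytochrome c were followed in DU145 cells, an established human prostate cancer line. They were all protein-coding genes of the count table named SDHA, SDHB, SDHC, SDHD, CYC1 or CYCS, or with a name that starts with UQCR, COX4I, COX5, COX6, COX7, COX8 or ATP5, with symbols assigned through GENCODE 44. This gave 52 of the 28747 genes in the table, of which 4 belong to complex II, 10 to complex III, 17 to complex IV and 20 to complex V, with CYCS on its own. Poly(A) RNA was sequenced in 12 libraries, 3 in each of 4 groups, to compare cells carrying the knockdown hairpin labelled shSigma with shCtrl control cells in bulk culture and in tumor spheres. The groups were adherent shCtrl, adherent shSigma, tumor sphere shCtrl and tumor sphere shSigma, and cells of every group carried a stable lentiviral short hairpin RNA selected with puromycin. The study describes a pair of knockdown hairpins, and the sources used here do not say which one the sequenced shSigma line carried, so effects of the hairpin, of the transduced line and of the knockdown cannot be told apart. Tumor spheres were grown without attachment, in serum-free medium with B-27, insulin, FGF2 and EGF, so attachment and medium cannot be told apart either.

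These genes encode most of the proteins that move electrons from succinate and ubiquinol to oxygen and make ATP. Complex II, succinate dehydrogenase, oxidises succinate and is made only of nuclear-encoded subunits. Complex III passes electrons from ubiquinol to cytochrome c, complex IV passes them from cytochrome c to oxygen, and complex V, the ATP synthase, uses the resulting proton gradient. Complexes III, IV and V also hold subunits encoded by mitochondrial DNA, so their assembly draws on transcripts of both genomes. Tumor cells that grow as spheres have often been described as dependent on mitochondrial respiration.

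The libraries held 16472722 to 26957777 counts, and the members took 0.528% to 0.803% of them. The epithelial markers KRT8, KRT18, EPCAM and CDH1 were present, and KLK3, PTPRC and PECAM1 were close to 0 CPM (counts scaled to the library size, as a fixed common total) in all groups, with none of these 3 above 0.285 CPM on average, while the stromal gene COL1A1 had 4.44 to 22.5 CPM. EPCAM fell by 2.99 in adherent cells and by 3.31 in spheres on the log2 scale after knockdown, and CDH1 by 1.23 and 4.71. The keratins went the other way in adherent cells, where KRT8 rose by 0.76 (adjusted p = 0.00454) and KRT18 by 0.58 (adjusted p = 0.00022), and they fell by 0.21 and 0.44 in spheres (adjusted p = 0.0304 and 2.11e-05). The replicates of adherent cells differed more than those of spheres, with a common biological coefficient of variation of 14.4% against 6.89%. In adherent shCtrl replicate 1 and adherent shSigma replicate 3 the deviations from the group mean fell with the GC content of the transcripts (Spearman correlation across genes -0.65 and -0.639), and in adherent shCtrl replicate 3 and shSigma replicate 2 they rose (0.702 and 0.598), where genes are not independent replicates. Without adherent shCtrl replicate 1 and shSigma replicate 3, an alternative chosen after the data were seen, the counts of calls are given with the main ones, and 3 of the members examined gained a call.

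Of the 52 members, 43 had enough counts to be tested in every comparison. In adherent cells 26 of these 43 were lower after knockdown, against 27.7% of all 13764 genes tested, and 2 were higher, against 22.3%. In spheres 29 were lower, against 30.9% of 13774 genes, and 3 were higher, against 30.2%. Calls rest on the quasi-likelihood F-test of edgeR and a threshold of 0.05 on p-values adjusted by the Benjamini-Hochberg method across the whole table, which holds for each adjusted p given. The median log2 fold change of the members was -0.41 in adherent cells and -0.31 in spheres, while that of all genes tested was -0.014 and 0.0015. The changes were modest, and with a fold change of more than 2 required as well, 1 member was lower in adherent cells (ATP5PB, against 6.13% of all genes) and 2 in spheres (COX4I1 and ATP5PB, against 7.17%). The 3 shSigma libraries lay below the 3 shCtrl libraries for 27 members in adherent cells, against 32.7% of all genes, and for 26 in spheres, against 32.6%. The count of members called lower in adherent cells, 26, fell to 17 without shCtrl replicate 2 and to 17 without shSigma replicate 1. It was 27 without both libraries that fell with GC content. At most 31 and at least 22 members were called lower in spheres when a library was left out.

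**Figure D1:**
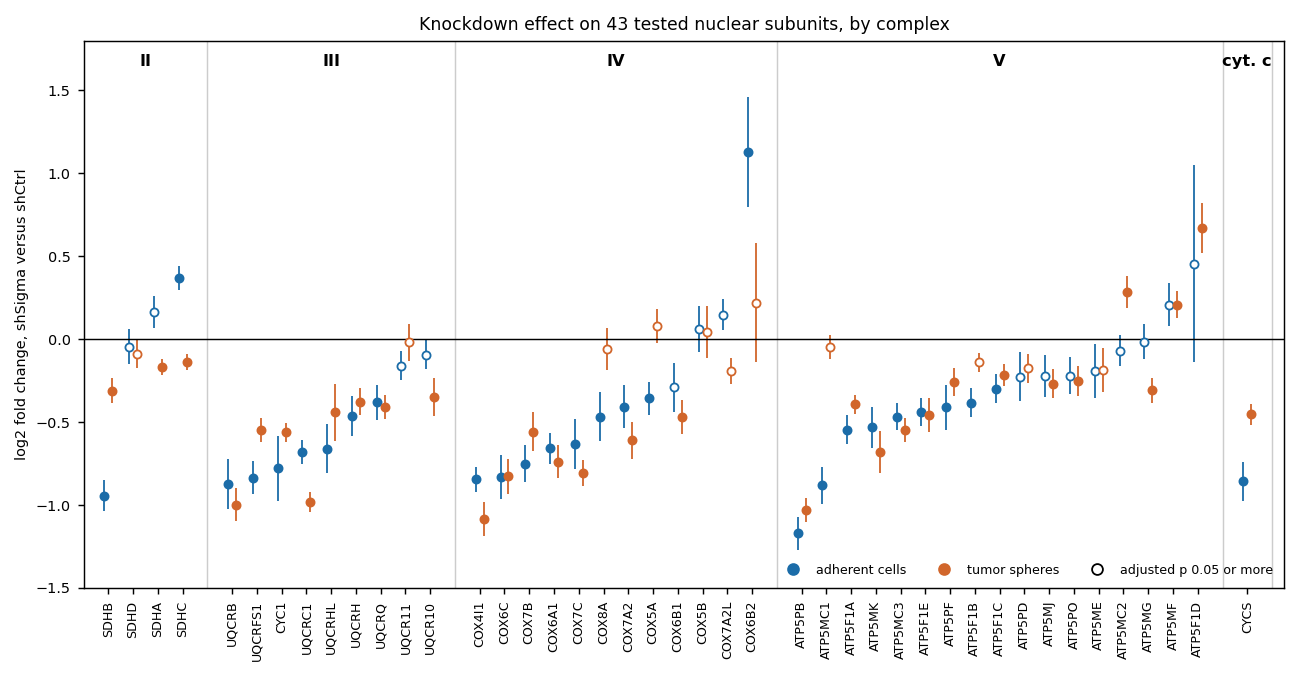
Log2 fold change (y axis) of shSigma against shCtrl cells for the 43 tested members (x axis, grouped by complex), in adherent cells (blue) and tumor spheres (orange), with bars of 1 standard error and open points for an adjusted p of 0.05 or more. Complex III lies below 0 throughout, whereas complex II holds SDHB at -0.94 and SDHC at 0.37 in adherent cells.

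The medians of the 4 complexes differed. The median log2 fold change in adherent cells was 0.059 for complex II, -0.66 for complex III, -0.44 for complex IV and -0.30 for complex V, with CYCS at -0.86. In spheres it was -0.15, -0.44, -0.51 and -0.25, with CYCS at -0.45. In both cultures the median of complex III was the value of UQCRHL, a near copy of UQCRH whose level is uncertain. Complex III had the largest share of called members, with 7 of 9 tested lower in adherent cells and 8 of 9 in spheres, and none higher in either. Its counts include both UQCRH and UQCRHL, which can share reads. Complex IV had 8 of 12 lower and 1 higher in adherent cells, and 7 of 12 lower in spheres. Complex V had 9 of 17 lower in adherent cells, and 10 lower with 3 higher in spheres. Complex II had 1 of 4 lower and 1 higher in adherent cells, and 3 of 4 lower in spheres. Among all genes tested, the adherent comparison called 27.7% lower and 22.3% higher, and the sphere comparison 30.9% and 30.2%. Complex II in adherent cells, with 25% called in each direction, was thus close to all genes. The counts per complex are over genes that are not replicates, and no test between complexes was made. Altogether 22 members were lower in both cultures, 4 in adherent cells alone (COX5A, COX8A, ATP5F1B and ATP5MC1), 7 in spheres alone (SDHA, SDHC, UQCR10, COX6B1, ATP5MG, ATP5MJ and ATP5PO) and 10 in neither. Of these 11 genes, a difference between the cultures passed the test for SDHA, SDHC and ATP5MC1. The share of all genes lower in both cultures was not counted, so the 22 members are a description only.

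**Figure D2:**
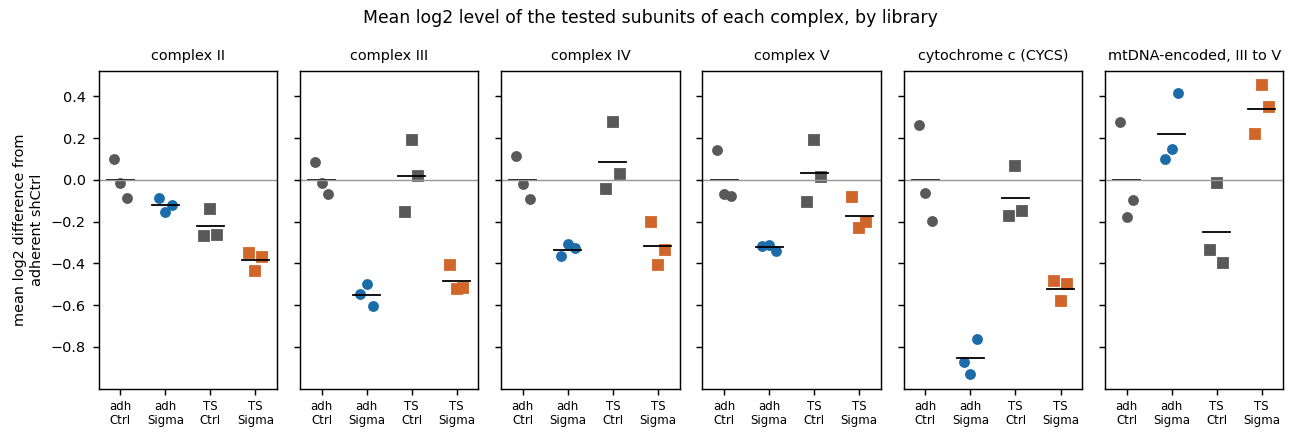
Mean log2 level of the tested members of each complex in every library, relative to the mean of adherent shCtrl libraries (y axis), in the 4 groups (x axis; adh, adherent; TS, tumor spheres), with lines for the mean of 3 libraries and, in the last panel, the 6 mitochondrially encoded subunits of complexes III to V. All shSigma libraries lie below all shCtrl libraries of the same culture for complexes II, III and IV, with complex II in adherent cells nearly touching (-0.0856 against -0.0853), and complex V overlaps in spheres, while the mitochondrially encoded subunits lie higher in shSigma spheres.

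Summed over its members, complex III took 1437, 1253 and 1232 CPM in the 3 adherent shCtrl libraries and 824, 859.7 and 839.8 CPM in the shSigma libraries. In spheres it took 1182, 1474 and 1302 CPM in shCtrl and 892.6, 807 and 832.5 CPM in shSigma libraries. The groups did not overlap in either culture. The sum for complex II was 655.7, 625.9 and 603.9 CPM in adherent shCtrl and 652.1, 634.8 and 628.6 CPM in adherent shSigma libraries, which did overlap. Summed in this way, complexes IV and V were separate in both cultures and complex II in spheres, all with shSigma lower. For complex V the lowest sphere shCtrl sum was 3053 CPM and the highest sphere shSigma sum 2949 CPM. Of all single genes tested, 32.7% in adherent cells and 32.6% in spheres had shSigma libraries below the shCtrl libraries. In bulk RNA, less RNA per cell and fewer cells of a kind cannot be told apart.

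Within complex II, SDHB and SDHC moved apart in adherent cells. SDHB carries the iron-sulfur clusters that pass electrons on to ubiquinone. Its level was 152, 128 and 119 CPM in adherent shCtrl and 70.7, 65.8 and 69.8 CPM in adherent shSigma libraries. In spheres it was 79.2, 93.9 and 84.6 CPM in shCtrl and 74.7, 64.5 and 70.5 CPM in shSigma libraries. The groups were separate in both cultures, and SDHB was at 52% of the control level in adherent cells (log2 fold change -0.94, SE 0.095, adjusted p = 0.000185) and at 80.7% in spheres (-0.31, SE 0.074, adjusted p = 0.00336). The knockdown effects differed by 0.57 (SE 0.13, adjusted p = 0.00407, interaction term), and the shSigma libraries of both cultures lay at about the same level (log2 difference 0.01, adjusted p = 0.893).

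SDHC, a membrane anchor, was called in opposite directions in the 2 cultures. It stood at 193, 185 and 172 CPM in adherent shCtrl and at 230, 225 and 252 CPM in adherent shSigma libraries, all above the controls. In spheres it stood at 193, 196 and 191 CPM in shCtrl and at 171, 181 and 179 CPM in shSigma libraries, all below. The log2 fold change was 0.37 in adherent cells (SE 0.070, adjusted p = 0.00365) and -0.14 in spheres (SE 0.049, adjusted p = 0.0259), and the interaction was -0.57 (SE 0.093, adjusted p = 0.000448). The call in spheres was lost with DESeq2 (adjusted p = 0.0555) and without shCtrl replicates 1 or 3 or shSigma replicates 1 or 3, and the adherent call was lost when the median of the 40 nearest tested genes was taken off (0.12, adjusted p = 0.22). The replicate block (adjusted p = 0.0772) and a fit of all 12 libraries (adjusted p = 0.102) also lost the call in spheres.

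SDHA, the flavoprotein subunit that oxidises succinate, had 209, 229 and 235 CPM in adherent shCtrl and 265, 265 and 218 CPM in adherent shSigma libraries, which overlapped. The sphere libraries had 206, 201 and 199 CPM in shCtrl and 183, 183 and 179 CPM in shSigma libraries, which did not. Its log2 fold change was 0.16 (SE 0.096, adjusted p = 0.201) in adherent cells and -0.17 (SE 0.048, adjusted p = 0.00975) in spheres, and the interaction was -0.38 (SE 0.10, adjusted p = 0.0122). Without adherent shCtrl replicate 1 the interaction missed the threshold (-0.27, adjusted p = 0.0837). The other anchor, SDHD, had log2 fold changes of -0.04 and -0.09 that did not pass the test (adjusted p = 0.757 and 0.371). The call of SDHA in spheres was lost without sphere shSigma replicate 3 (adjusted p = 0.0537) and in a fit of all 12 libraries (adjusted p = 0.0774), whereas in adherent cells SDHA passed as higher without shSigma replicate 3 (0.25, adjusted p = 0.0328), without both libraries that fell with GC content (0.20, adjusted p = 0.0117) and in the fit of all 12 libraries (0.22, adjusted p = 0.0185).

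**Figure D3:**
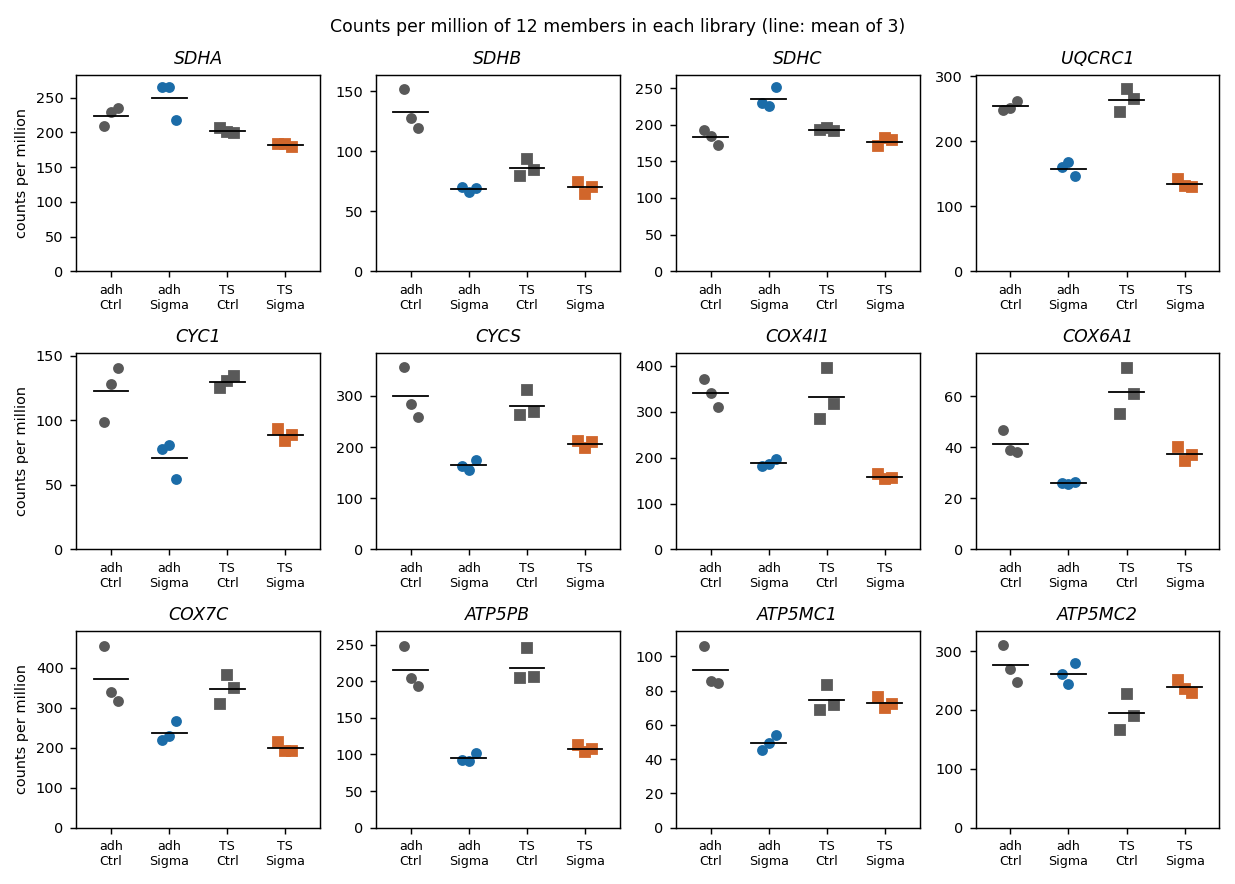
CPM (y axes, from 0) of 12 members in the 3 libraries of each of the 4 groups (x axes; adh, adherent; TS, tumor spheres), with lines for the group means. ATP5PB and UQCRC1 are lower in all shSigma libraries of both cultures, ATP5MC1 is lower in adherent shSigma libraries and overlaps between the groups in spheres, and SDHC is above the controls in adherent cells and below them in spheres.

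In complex III, the core subunit UQCRC1 and the electron-carrying nuclear subunits CYC1 and UQCRFS1 fell in both cultures. The mitochondrially encoded carrier MT-CYB did not, with -0.07 in adherent cells and 0.51 in spheres on the log2 scale (adjusted p = 0.71 and 0.00037). UQCRC1 had 249, 252 and 263 CPM in adherent shCtrl and 160, 168 and 146 CPM in adherent shSigma libraries. In spheres it had 245, 281 and 265 CPM in shCtrl and 142, 132 and 130 CPM in shSigma libraries. The groups lay far apart, with log2 fold changes of -0.68 (SE 0.072, adjusted p = 0.000231) and -0.98 (SE 0.061, adjusted p = 9.18e-08). The interaction of -0.36 (SE 0.097, adjusted p = 0.0128) was lost without sphere shCtrl replicate 2 (-0.25, adjusted p = 0.0829), without adherent shCtrl replicate 1, without sphere shSigma replicates 2 or 3, without the filter on low counts and when the GC trend was taken off (-0.24, adjusted p = 0.135).

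CYC1, the cytochrome subunit that hands electrons to cytochrome c, had 98.7, 128 and 141 CPM in adherent shCtrl and 77.8, 80.6 and 54.8 CPM in adherent shSigma libraries. Its sphere levels were 125, 130 and 135 CPM in shCtrl and 93.4, 84.2 and 88.6 CPM in shSigma libraries. No shSigma library reached a control library of its culture. The log2 fold change was -0.78 (SE 0.20, adjusted p = 0.0185) and -0.56 (SE 0.058, adjusted p = 5.76e-06), and the adherent call was lost without shCtrl replicate 2 (adjusted p = 0.0625) or shCtrl replicate 3 (adjusted p = 0.0512). The adherent call was also lost with the replicate block (adjusted p = 0.0655). UQCRFS1, the Rieske iron-sulfur protein, fell by 0.83 (SE 0.099, adjusted p = 0.000369) and by 0.55 (SE 0.072, adjusted p = 4.67e-05) on the log2 scale, from 119, 98.3 and 92.1 CPM to 56.6, 56.6 and 59 CPM in adherent cells.

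Among the small subunits of complex III, UQCRB fell by 0.87 and by 1.00 on the log2 scale (adjusted p = 0.00334 and 2.21e-05), UQCRQ by 0.38 and by 0.41 (adjusted p = 0.0198 and 0.000398), and UQCR10 was called in spheres alone (-0.35, adjusted p = 0.0229, against -0.09 in adherent cells, adjusted p = 0.402). Without adherent shCtrl replicates 2 or 3 or shSigma replicate 1, UQCRQ missed the threshold (adjusted p = 0.0529 to 0.077), as it did with the replicate block (adjusted p = 0.0635). UQCR11 did not pass in either culture (-0.16 and -0.02, adjusted p = 0.173 and 0.891). UQCRC2, the second core subunit, was listed at 0 in all 12 libraries, as were 7841 genes of the table, so its level is not known from these counts.

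UQCRH, the hinge protein next to the cytochrome c site, has a near copy in UQCRHL, a gene without introns in its coding sequence. The annotation places UQCRH at chr1:46303698-46316776 on the plus strand and UQCRHL at chr1:15807169-15809348 on the minus strand (GRCh38, GENCODE 44). Their coding sequences of 273 bases differ at 4 positions (98.5% identity), and 83 of the 199 windows of 75 bases, the read length, are identical, so reads of one can be counted for the other. Both sequences are shown from base 138 to base 253 of the coding sequence, with the differing bases in capitals.
UQCRH: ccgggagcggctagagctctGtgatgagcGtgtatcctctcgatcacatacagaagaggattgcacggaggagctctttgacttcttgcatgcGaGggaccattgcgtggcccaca
UQCRHL: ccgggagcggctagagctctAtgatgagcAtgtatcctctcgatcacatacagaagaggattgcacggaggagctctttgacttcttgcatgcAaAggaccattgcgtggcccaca

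UQCRH had 345, 271 and 252 CPM in adherent shCtrl and 197, 204 and 225 CPM in adherent shSigma libraries (log2 fold change -0.46, SE 0.12, adjusted p = 0.0152). UQCRHL had 12.4, 12.5 and 9.21 CPM against 6.83, 6.97 and 7.69 CPM in the same libraries (-0.66, SE 0.15, adjusted p = 0.00764). Both pairs of groups were separate, and in spheres UQCRH fell by 0.38 (adjusted p = 0.00204) and UQCRHL by 0.44 (adjusted p = 0.0427) on the log2 scale. The value of UQCRHL is uncertain because of the shared windows, and its call in spheres was lost with DESeq2 (adjusted p = 0.0807) and without sphere shCtrl replicates 2 or 3 or shSigma replicates 1 or 3 (adjusted p = 0.0761 to 0.187). In a fit of all 12 libraries UQCRHL missed the threshold in spheres as well (adjusted p = 0.053). Its adherent call was lost without shCtrl replicate 2 (adjusted p = 0.0517) or shSigma replicate 1 (adjusted p = 0.0505). UQCRH lost its adherent call without shCtrl replicate 1 (adjusted p = 0.0549), shSigma replicate 1 (adjusted p = 0.0977) or shSigma replicate 2 (adjusted p = 0.0841), and when the median of its 40 nearest tested genes, -0.56, was taken off (0.094, adjusted p = 0.56), which turned its sign. With the replicate block UQCRH missed the threshold in adherent cells as well (adjusted p = 0.0512).

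CYCS, the soluble electron carrier between complexes III and IV, was at 356, 284 and 259 CPM in adherent shCtrl and at 162, 156 and 175 CPM in adherent shSigma libraries. In spheres it was at 263, 311 and 268 CPM in shCtrl and at 212, 199 and 210 CPM in shSigma libraries. It was thus lower in every shSigma library, to 55.2% of the control level in adherent cells (log2 fold change -0.86, SE 0.12, adjusted p = 0.000777) and to 73.1% in spheres (-0.45, SE 0.064, adjusted p = 7.99e-05). The difference between the 2 effects was 0.34 (SE 0.14, adjusted p = 0.092) and did not pass.

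COX4I1, the ubiquitous form of a regulatory subunit that binds ATP, had the lowest log2 fold change of the tested members of complex IV in both cultures, next to COX6C in adherent cells. It had 370, 341 and 310 CPM in adherent shCtrl and 182, 185 and 197 CPM in adherent shSigma libraries. In spheres it had 284, 396 and 317 CPM in shCtrl and 163, 154 and 156 CPM in shSigma libraries. The groups were separate, and COX4I1 was at 55.6% (log2 fold change -0.85, SE 0.077, adjusted p = 0.000118) and at 47.1% (-1.08, SE 0.10, adjusted p = 1.54e-05) of the control level. COX4I2, the form known from lung and from hypoxic cells, had at most 0.0437 CPM in any library and was not tested.

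COX6A1, the form of its subunit found in most tissues, had 46.8, 39.2 and 38.3 CPM in adherent shCtrl and 26, 25.7 and 26.6 CPM in adherent shSigma libraries. Its log2 fold change was -0.66 (SE 0.094, adjusted p = 0.000923), and in spheres -0.74 (SE 0.10, adjusted p = 8.57e-05), with separate groups in both. COX7C had 456, 339 and 318 CPM in adherent shCtrl and 219, 229 and 266 CPM in adherent shSigma libraries. It fell by 0.63 (SE 0.15, adjusted p = 0.0114) and, in spheres, by 0.81 (SE 0.076, adjusted p = 4.4e-06) on the log2 scale, and the adherent call was lost without shSigma replicate 1 (adjusted p = 0.0576) or 2 (adjusted p = 0.0634). The adherent call was also lost when the median of the 40 nearest tested genes was taken off (adjusted p = 0.0799).

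Of the isoforms known from muscle or testis, COX6B2 was detected. COX6A2 and COX7A1, the forms of heart and skeletal muscle, and COX7B2 and COX8C, known from testis, were listed at 0 in all libraries, as UQCRC2 was, so their levels are not known either. COX6B2, the testis form of the subunit COX6B1, had 0.444, 0.787 and 0.905 CPM in adherent shCtrl and 1.28, 2.09 and 1.32 CPM in adherent shSigma libraries, a log2 fold change of 1.13 (SE 0.33, adjusted p = 0.0242) at a level near the filter. DESeq2 gave it an adjusted p of 0.0656, and without adherent shSigma replicate 2 it was 0.0687. COX6B1 itself was called lower in spheres (-0.47, adjusted p = 0.00307) but not in adherent cells (-0.29, adjusted p = 0.148). Its adherent value was -0.065 without shCtrl replicate 1, -0.14 without shSigma replicate 1 and -0.38 without shCtrl replicate 3, and without both libraries that fell with GC content it passed as lower (-0.19, adjusted p = 0.0298).

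Of the other complex IV subunits, COX7B fell by 0.75 and 0.56 (adjusted p = 0.00117 and 0.00236), COX6C by 0.83 and 0.83 (adjusted p = 0.00178 and 0.000106) and COX7A2 by 0.41 and 0.61 (adjusted p = 0.0342 and 0.00115) on the log2 scale in adherent cells and spheres. The adherent call of COX7A2 was lost without shCtrl replicates 1 or 2 or shSigma replicates 1 or 2 (adjusted p = 0.0871 to 0.178). That call was also lost with upper-quartile scaling (adjusted p = 0.0571), with the replicate block (adjusted p = 0.0846) and in a fit of all 12 libraries (adjusted p = 0.058). With the neighbours' median taken off it was lost as well (adjusted p = 0.206). COX5A and COX8A were lower in adherent cells (-0.36 and -0.47, adjusted p = 0.0209 and 0.0353), and their values in spheres were 0.08 and -0.06 (adjusted p = 0.529 and 0.708). COX8A missed the threshold without shCtrl replicate 2 (adjusted p = 0.0954), shCtrl replicate 3 (adjusted p = 0.116) or shSigma replicate 2 (adjusted p = 0.0527). It also missed with the replicate block (adjusted p = 0.0891) and with at least 10 counts required in every library (adjusted p = 0.0503). Without sphere shSigma replicate 1 it passed in spheres (-0.22, adjusted p = 0.0388). COX5B did not pass in either culture (0.06 and 0.04).

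COX7A2L is related to COX7A2 but acts in joining complexes III and IV into supercomplexes, and whether its knockdown effect passed depended on the processing. It had 153, 135 and 120 CPM in adherent shCtrl and 146, 147 and 157 CPM in adherent shSigma libraries (0.15, SE 0.091, adjusted p = 0.212). In spheres it had 123, 156 and 129 CPM in shCtrl and 122, 114 and 125 CPM in shSigma libraries (-0.19, SE 0.080, adjusted p = 0.0576). Each pair of groups overlapped, and the interaction of -0.40 passed (SE 0.13, adjusted p = 0.0369). Without adherent shCtrl replicate 1 the effect passed as higher in adherent cells (0.29, adjusted p = 0.0338), as it did without both libraries that fell with GC content (0.21, adjusted p = 0.02), with the GC trend taken off (0.31, adjusted p = 0.000191) and with the neighbours' median taken off (0.27, adjusted p = 0.0458). It passed as lower in spheres with upper-quartile scaling (-0.20, adjusted p = 0.0462), without a filter on low counts (-0.19, adjusted p = 0.0234) and without sphere shCtrl replicate 1 (-0.25, adjusted p = 0.0164).

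The peripheral stalk of complex V, which holds the catalytic head in place, contained the member with the lowest log2 fold change in adherent cells. ATP5PB, subunit b of that stalk, had 248, 205 and 194 CPM in adherent shCtrl and 93, 90.8 and 102 CPM in adherent shSigma libraries. In spheres it had 204, 246 and 206 CPM in shCtrl and 114, 103 and 108 CPM in shSigma libraries. This amounted to 44.4% of the control level in adherent cells (log2 fold change -1.17, SE 0.10, adjusted p = 9.33e-05) and 49% in spheres (-1.03, SE 0.072, adjusted p = 2.61e-07), with an interaction of 0.08 (SE 0.14, adjusted p = 0.723). Its partners in the stalk changed less, with ATP5PF at -0.41 and -0.26 (adjusted p = 0.0416 and 0.0192), ATP5PO at -0.22 and -0.25 (adjusted p = 0.138 and 0.0286) and ATP5PD at -0.23 and -0.17 (adjusted p = 0.256 and 0.104).

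In the catalytic head, the alpha subunit ATP5F1A had 670, 588 and 555 CPM in adherent shCtrl and 401.1, 391.5 and 442.5 CPM in adherent shSigma libraries, and fell by 0.55 and by 0.39 (adjusted p = 0.00162 and 7.84e-05) on the log2 scale. The beta subunit ATP5F1B, the member with the most counts per exon length in adherent shCtrl cells (519 CPM per kilobase of annotated exon), had log2 fold changes of -0.38 and -0.14 (adjusted p = 0.00797 and 0.0566). The gamma subunit ATP5F1C and the epsilon subunit ATP5F1E belong to the central stalk. Both fell in both cultures, by 0.30 and 0.21 and by 0.44 and 0.46 on the log2 scale (adjusted p = 0.0254, 0.0145, 0.00389 and 0.00333).

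ATP5F1D, the delta subunit of the central stalk, went the other way in spheres. It had 27.3, 22.3 and 27.2 CPM in sphere shCtrl and 50.6, 39.3 and 33.4 CPM in sphere shSigma libraries (log2 fold change 0.67, SE 0.15, adjusted p = 0.00358). Its call was 1 of 3 calls higher in spheres, a count that was 1 under the alternatives given with ATP5MF. Its adherent values were 6.78, 11.7 and 21.4 CPM in shCtrl and 22.4, 25.1 and 7 CPM in shSigma libraries, which overlapped (0.46, SE 0.59, adjusted p = 0.56). Its transcript had a GC content of 69.5%, the highest of the tested members, and its lowest adherent libraries were the 2 whose deviations fell with GC content; the part of GC content in its values was not tested.

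Subunit c, which forms the rotating ring, is made from 3 genes, and these did not move together. ATP5MC1 had 106, 85.4 and 84.4 CPM in adherent shCtrl and 45.6, 49.2 and 54.3 CPM in adherent shSigma libraries. In spheres it had 68.5, 83.2 and 71.7 CPM in shCtrl and 76.3, 69.6 and 72.4 CPM in shSigma libraries. It was thus lower in adherent cells alone (log2 fold change -0.88, SE 0.11, adjusted p = 0.000513), with a value of -0.05 (SE 0.074, adjusted p = 0.61) in spheres and an interaction of 0.77 (SE 0.15, adjusted p = 0.0014). ATP5MC3 was lower in both, with 141, 121 and 115 CPM in adherent shCtrl and 90.9, 91.3 and 89 CPM in adherent shSigma libraries (-0.47, SE 0.082, adjusted p = 0.00253, and -0.55, SE 0.070, adjusted p = 3.27e-05, in spheres). ATP5MC2 overlapped in adherent cells (-0.07, SE 0.094, adjusted p = 0.575), and in spheres it was higher, with 166, 227 and 189 CPM in shCtrl and 251, 235 and 229 CPM in shSigma libraries (0.28, SE 0.098, adjusted p = 0.0301). That call was lost without sphere shCtrl replicate 1 (adjusted p = 0.0543), shCtrl replicate 3 (adjusted p = 0.0924) or shSigma replicate 1 (adjusted p = 0.0808).

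As a share of the counts of these 3 genes, ATP5MC2 took 55.7%, 56.7% and 55.4% in adherent shCtrl and 65.6%, 63.5% and 66.2% in adherent shSigma libraries. In spheres it took 44.2%, 47.7% and 45.7% in shCtrl and 57.3%, 58.6% and 55.6% in shSigma libraries. ATP5MC1 took 17.9% to 19% in adherent shCtrl and 11.5% to 12.8% in adherent shSigma libraries, and 17.3% to 18.2% in all 6 sphere libraries. The 3 summed to 376.3, 476.1 and 414 CPM in sphere shCtrl and to 438.1, 401.8 and 411.3 CPM in sphere shSigma libraries, which overlapped.

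Reads of 75 bases within the coding sequence can tell the 3 genes apart, while untranslated parts and pseudogenes were not compared. The last 77 residues that they encode have no difference, but 57 of the 231 coding bases behind those residues do, and none of the windows of 75 coding bases is shared. ATP5MC1 lies at chr17:48892765-48895871 on the plus strand, ATP5MC2 at chr12:53632726-53677408 on the minus strand and ATP5MC3 at chr2:175176258-175181710 on the minus strand (GRCh38, GENCODE 44). The last 150 coding bases before the stop codon show how the same end is spelled in each, with capitals at positions where the 3 genes are not all alike.
ATP5MC1: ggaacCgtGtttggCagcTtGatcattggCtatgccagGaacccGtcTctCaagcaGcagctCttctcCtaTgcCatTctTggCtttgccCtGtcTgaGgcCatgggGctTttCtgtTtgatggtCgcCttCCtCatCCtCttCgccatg
ATP5MC2: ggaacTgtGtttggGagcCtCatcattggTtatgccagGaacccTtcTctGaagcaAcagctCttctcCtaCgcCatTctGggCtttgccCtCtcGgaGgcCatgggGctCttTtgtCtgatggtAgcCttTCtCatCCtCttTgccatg
ATP5MC3: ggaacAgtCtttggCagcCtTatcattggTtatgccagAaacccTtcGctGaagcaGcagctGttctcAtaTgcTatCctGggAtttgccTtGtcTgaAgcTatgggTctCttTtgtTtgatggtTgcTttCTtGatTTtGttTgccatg

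The small membrane subunits of complex V split as well. ATP5MK was lower in both cultures (-0.53 and -0.68, adjusted p = 0.00961 and 0.00133), ATP5MG and ATP5MJ in spheres alone (-0.31 and -0.27, adjusted p = 0.00403 and 0.021, against -0.01 and -0.22 in adherent cells, adjusted p = 0.918 and 0.188), and ATP5ME in neither (-0.19 and -0.19). ATP5MF was higher in spheres (0.21, adjusted p = 0.0437, and 0.21 with adjusted p = 0.227 in adherent cells). With ATP5F1D and ATP5MC2 it made up the 3 members called higher in spheres. That count was 1 in a fit of all 12 libraries, and without sphere shCtrl replicate 1, shCtrl replicate 3 or shSigma replicate 1. In each of these alternatives at least 1 of the calls of ATP5MF and ATP5F1D was therefore lost. ATP5MF overlaps the read-through gene ATP5MF-PTCD1, which had at most 0.159 CPM, and ATP5MGL had at most 0.101 CPM; neither was tested. ATP5IF1, the protein that inhibits ATP hydrolysis by the synthase, was listed at 0 in all libraries. Of the 52 members, 20 overlap another protein-coding gene in the annotation, and the sources used here do not state whether counting used the strand.

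Between cultures the members showed no common direction. In shCtrl cells 7 of the 43 were lower in spheres, against 26.3% of all 13800 genes tested, and 8 were higher, against 27.4%, with a median log2 difference of 0.07. In shSigma cells 11 were lower, against 25.2% of 13622 genes, and 9 were higher, against 21.9%, with a median of 0.02. These comparisons use the same libraries as the knockdown comparisons. Without sphere shCtrl replicate 3 the counts in shCtrl cells were 4 lower and 4 higher, and without adherent shCtrl replicate 2 they included 5 higher. The counts in shSigma cells went to 6 lower without sphere shSigma replicate 2, to 7 lower without sphere shSigma replicate 3 and to 14 higher without adherent shSigma replicate 3. With the GC trend of each library taken off, an alternative chosen after the data were seen, 14 members were higher in each line.

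In shCtrl cells, SDHB was lower in spheres than in adherent cells (-0.58, SE 0.095, adjusted p = 0.00133). UQCRQ was higher in spheres, from 74, 70.6 and 76.2 CPM to 101, 124 and 113 CPM (0.66, SE 0.087, adjusted p = 0.000439). COX5B, whose knockdown effect did not pass, went from 32.6, 36.1 and 33.8 CPM to 44.7, 56.9 and 52.8 CPM (0.64, SE 0.10, adjusted p = 0.00136). ATP5MC3 was higher by 0.34 (SE 0.084, adjusted p = 0.0105), a call lost without adherent shCtrl replicate 2 (adjusted p = 0.0534) or sphere shCtrl replicate 3 (adjusted p = 0.0626). CYCS differed by -0.05 (SE 0.11, adjusted p = 0.754). The 3 values of each group named as higher did not overlap with those of the other culture.

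The difference between the 2 knockdown effects passed the test for 6 of the 43 members. For 4 (SDHA, SDHC, UQCRC1 and COX7A2L) it was negative, against 15.6% of all 14175 genes tested, and for 2 (SDHB and ATP5MC1) it was positive, against 12.7%. Of the 4 subunits of complex II, all but SDHD were among them. The positive count went to 6 without adherent shSigma replicate 3 or without sphere shCtrl replicate 2 and to 4 without adherent shCtrl replicate 3, and the negative count to 2 without sphere shCtrl replicate 2, sphere shSigma replicate 2 or sphere shSigma replicate 3.

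The chromosomal neighbourhood of some members moved in the same direction as the member itself. The 40 nearest tested genes showed a median change of -0.60 on the log2 scale around UQCRB and -0.59 around COX6C in adherent cells, and of -0.60 and -0.58 in spheres; both genes lie on chromosome 8. The median was -0.40 and -0.42 around UQCRC1 and -0.36 and -0.39 around ATP5PB. Around COX4I1 it was 0.014 and -0.16, around CYCS 0.064 and 0, and around ATP5MF it was 0.63 and 0.57. When the neighbours' median was taken off, 21 members were lower in adherent cells and 31 in spheres. The median of complex III then went from -0.66 to -0.32 in adherent cells and that of complex IV from -0.44 to -0.26 in adherent cells and from -0.51 to -0.29 in spheres. The median of complex II went from 0.059 to -0.086 in adherent cells and from -0.15 to -0.29 in spheres, and that of complex V was then -0.41 and -0.36, below complexes III and IV in adherent cells and between them in spheres, where complex III was at -0.40. The part of these regions in the members' changes was not tested further.

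**Figure D4:**
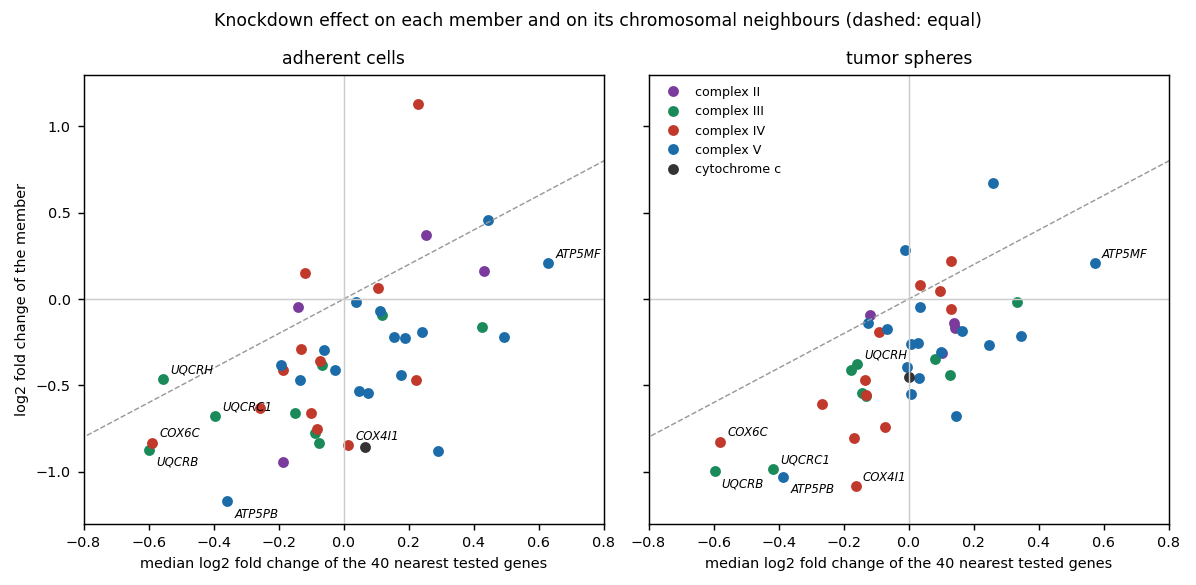
Log2 fold change after knockdown of each tested member (y axis) against the median of its 40 nearest tested genes on the same chromosome (x axis), in adherent cells and tumor spheres, coloured by complex, with a dashed line where both are equal. Under the line lie 37 of 43 members in adherent cells and 38 of 43 in spheres, and UQCRB, COX6C, UQCRC1 and ATP5PB lie where their neighbours were lower as well. The same count over all genes tested was not made.

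The windows of 250 bases before the RefSeq start site were searched for short motifs of factors known to bind respiratory gene promoters, on both strands, in the 39 members with an entry in the promoter table. The core of the NRF1 site, GCATGCGC, was found before 9 members (23.1%) and before 2.81% of all 27305 promoters. An ETS core, CCGGAAG, was found before 12 (30.8%) and before 8.82% of all promoters, and the YY1 core AAGATGGC before 1 (2.56%, against 1.37%). Of the 9 with the NRF1 core, 5 were lower in both cultures and 4 in neither (SDHD, COX5B, ATP5MC2 and ATP5ME), and of the 25 tested members without it 12 were lower in both and 4 in neither. Windows of 30 bases are shown, on the strand of the gene and with the core in capitals, first for 3 members that were lower in both cultures and then for 3 that were lower in neither.
SDHB: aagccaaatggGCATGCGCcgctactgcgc
CYCS: catgctcgccaGCATGCGCgcgcaggtcct
COX6A1: ggaggtgcagaGCGCATGCtctctcttgcc
SDHD: gctgtgtttgcGCATGCGCgacgggtgtgc
COX5B: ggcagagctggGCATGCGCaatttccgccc
ATP5MC2: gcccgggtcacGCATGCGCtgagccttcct
These lie at chr1:17054214-17054243 (minus strand), chr7:25125411-25125440 (minus), chr12:120437928-120437957 (plus), chr11:112086754-112086783 (plus), chr2:97645915-97645944 (plus) and chr12:53676105-53676134 (minus) of GRCh38.p14. The windows of all but ATP5MC2 lie outside the annotated gene. The same core thus stands before genes that fell in both cultures, before genes that did not pass, and before ATP5MC2, which was called higher in spheres, and a match is a description of letters, not of binding.

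Among the other genes of the pathway, the mitochondrially encoded subunits gave a different picture. The 6 mitochondrially encoded subunits of complexes III to V were not called lower in either culture. In spheres all 6 were higher after knockdown (median 0.57 on the log2 scale), and MT-ATP6 (0.74, SE 0.083, adjusted p = 1.26e-05) and MT-CO3 (0.64, SE 0.087, adjusted p = 5.52e-05) had the smallest p-values. In adherent cells 1 of 6 was called, MT-CO1 (0.35, SE 0.12, adjusted p = 0.0476), while MT-CO3 was at 0.35 (adjusted p = 0.071), and the median was 0.31. For comparison, 10 of 34 tested nuclear subunits of complex I fell and 2 rose in adherent cells (median -0.10), close to the 27.7% of all genes called lower, while 19 of 33 fell and 7 rose in spheres (median -0.26), against 30.9% and 30.2% of all genes.

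Assembly factors of complexes II to V mostly did not pass. Of 42 tested, 12 fell and 3 rose in adherent cells (median -0.03), and 16 fell and 3 rose in spheres (median -0.13). In adherent cells the share that fell was close to the 27.7% of all genes, while 22.3% of all genes rose. In spheres 30.9% of all genes fell and 30.2% rose. COA7, needed for complex IV, fell by 1.14 in adherent cells (adjusted p = 9.17e-05) and by 0.36 in spheres (adjusted p = 0.000863) on the log2 scale, and CMC1, a partner of early complex IV, by 0.73 and 0.49 (adjusted p = 0.000441 and 0.0145). TTC19 of complex III fell by 0.44 and 0.64 (adjusted p = 0.00255 and 9.45e-06), and TMEM70 of complex V by 0.36 and 0.47 (adjusted p = 0.0171 and 0.000156). Among 15 tested regulators of respiratory genes, 6 fell and 2 rose in adherent cells, against 27.7% and 22.3% of all genes. In spheres 6 of these regulators fell and 5 rose, against 30.9% and 30.2%, so the share that rose was close to that of all genes. TFAM, which packages and transcribes mitochondrial DNA, fell by 0.68 and 0.57 (adjusted p = 0.000343 and 3.98e-06). The coactivator PPARGC1B fell by 0.86 in adherent cells (adjusted p = 0.000841), and HIF1A fell by 0.42 in spheres (adjusted p = 4.06e-05). PPARGC1A had too few counts to be tested.

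Of 9 tested proteins that work beside the complexes, 5 fell and 1 rose in adherent cells, against 27.7% and 22.3% of all genes. In spheres 3 of them fell, close to the 30.9% of all genes. HIGD1A, a small protein that binds complex IV, fell by 1.27 and 1.31 (adjusted p = 0.000194 and 2.66e-07) on the log2 scale. OXA1L, which inserts proteins into the inner membrane, fell by 0.97 and 0.76 (adjusted p = 6.99e-05 and 6.78e-07). NDUFA4, now counted with complex IV, was the other of the 3 called in both cultures (-0.65 and -0.56, adjusted p = 0.00591 and 0.000811).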

How the data were processed

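Each of the 4 groups of DU145 cells had 3 replicates, which the study calls independent. Directional libraries were made from 800 ng of total RNA and read over 75 nt from one end. The authors aligned the reads to GRCh38.p12 with STAR (version 2.6.1c per the labels) and deposited raw counts per Ensembl gene, without normalization. The annotation, the use of strand and the handling of reads with several alignments are not given in the sources used here.

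From the deposited counts, CPM scaled by TMM and log2 fold changes were computed with edgeR 4.0.16 in R 4.3.3. Genes were filtered with filterByExpr (minimum count 10), and each comparison was fitted on its own libraries using its quasi-likelihood F-test (robust, two-sided) and adjusting p-values by Benjamini-Hochberg across the tested genes. The difference between cultures was the interaction in a fit of all 12 libraries. The procedure was tested on simulated counts. The level of the targeted gene is not reported here. The members and gene lists were chosen with earlier results of these data known. Members named with values had the 2 smallest p-values of their complex in a knockdown comparison, were among the 5 smallest interaction p-values, had the smallest p-value of their complex between cultures of shCtrl cells, had an isoform or opposite calls. Other members with values were named after those values were seen. Each list is represented by the 2 genes with the smallest p-values per culture, with NDUFA4 and PPARGC1A added after their values were seen. Alternatives were DESeq2 1.42.0, other scalings and filters, a replicate block, a fit of all 12 libraries, subtraction of the 40 nearest genes' median, and leaving out each library. Intervals from 3 libraries measure only the spread between them. Sequences came from GENCODE 44 transcripts and RefSeq promoters (GRCh38.p14). The promoter table has no entry for ATP5F1B, ATP5F1D, ATP5MC3, ATP5MF, ATP5MF-PTCD1, ATP5MGL, COX4I2, COX6C, COX7A1, CYC1, SDHC, UQCRB and UQCRHL.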

Additional observations from a re-analysis of the deposited data

Results flagged for a closer look

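The effect of knockdown differed between tumor spheres and adherent cells for 6 members when the difference itself was tested (interaction term, edgeR, p-values adjusted by Benjamini-Hochberg). The difference was negative for 4 of the 43 members, against 15.6% of all 14175 genes tested, and positive for 2, against 12.7%. The shares among members were thus below those of all genes. Given as the log2 fold change in spheres minus that in adherent cells, the difference was -0.38 for SDHA, 0.57 for SDHB, -0.57 for SDHC, -0.36 for UQCRC1, -0.40 for COX7A2L and 0.77 for ATP5MC1. SDHA and SDHC had values above 0 in adherent cells and below 0 in spheres, and so did COX7A2L, whose effect in each culture passed only under some alternatives. SDHB and ATP5MC1 fell further in adherent cells, and UQCRC1 fell further in spheres. With 3 libraries a group, no test for a library far from the others of its group was made. The libraries whose deviations followed GC content are named with the results.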

How the results depend on the processing

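Across the alternatives, 243 of the group counts and complex medians stayed within the limits set for them, 48 moved and 1 turned its sign; for single members 826 values kept their side of the threshold, 60 lost it, 12 gained it and 15 turned their sign. A fold change over 2 as a further condition left 1 member lower and 1 higher in adherent cells, 2 lower and 0 higher in spheres, 0 and 0 between cultures of shCtrl cells, 1 and 0 of shSigma cells, and 0 and 0 for the interaction, by construction. The higher count in adherent cells (2) was 1 with DESeq2, 1 with the neighbours' median taken off and 5 without both libraries that fell with GC content; in spheres (3) it was 1 in a fit of all 12 libraries. Without a filter the interaction gave 2 lower and 4 higher, and with the GC trend taken off 6 higher; that correction gave 14 higher between cultures in shCtrl and 14 in shSigma cells. The cause was not tested. The GC correction and the removal of both libraries were chosen after seeing the data.

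With the neighbours' median taken off, the complex medians were -0.0861 (II), -0.316 (III) and -0.263 (IV) in adherent cells and -0.294 (II) and -0.291 (IV) in spheres, SDHA was at -0.27, COX5B at -0.042 and UQCRH at 0.094 in adherent cells, and COX5B at -0.054 in spheres. CYCS between cultures of shCtrl cells was 0.12 with the GC trend taken off. Leaving out 1 library at a time gave 17 to 26 lower and 1 to 4 higher in adherent cells, 22 to 31 and 1 to 4 in spheres, 4 to 8 and 4 to 10 between cultures in shCtrl cells, 6 to 12 and 8 to 14 in shSigma cells, and 2 to 5 and 2 to 6 for the interaction. The complex medians then ranged from 0.035 to 0.14 (II), -0.66 to -0.52 (III), -0.47 to -0.31 (IV) and -0.37 to -0.19 (V) in adherent cells, and from -0.17 to -0.14 (II), -0.58 to -0.34 (III), -0.62 to -0.37 (IV) and -0.32 to -0.16 (V) in spheres. Complex II in adherent cells (0.059) was 0.035 without shCtrl replicate 3 and 0.11 to 0.14 without shCtrl replicates 1 or 2 or shSigma replicates 1 or 2. Complex V was -0.19 without adherent shCtrl replicate 1 and -0.16 without sphere shCtrl replicate 2. Members outside the threshold turned sign, namely ATP5MC2 in adherent cells (-0.14 to 0.071), COX5B (-0.16 to 0.17), ATP5MC1 (-0.096 to 0.034) and COX8A (-0.22 to 0.029) in spheres, and CYCS between cultures of shCtrl cells (-0.18 to 0.039), with COX8A passing at its lowest value.

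Deviations of same-numbered shSigma and shCtrl libraries had correlations of -0.456, 0.0032 and -0.737 in adherent cells and 0.0361, 0.007 and -0.0446 in spheres. Between cultures they were -0.341, -0.0425 and 0.162 in shCtrl cells and 0.195, -0.0252 and 0.287 in shSigma cells. Since deviations of some libraries followed GC content, these values cannot tell whether the numbers pair the libraries. With the replicate block 18 members were lower in adherent cells, 28 in spheres, and 14 higher between cultures of shSigma cells. Pseudogenes could not be added as an alternative, since GENCODE 44 names 118 after members and the table holds 0 of them. At this depth members under about 1 CPM, such as COX6B2, are the least certain.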
